A study of Homo sapiens with 6 samples.

Results

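The interleukin-6 and LIF family genes examined here were IL6, IL11, LIF, CLCF1, IL6R, IL6ST, LIFR, OSMR, IL11RA and SOCS3. They were chosen by name, as the rows of the deposited table that carry these symbols, and made up 10 of the 19973 genes listed. The members and the lists of pathway genes below were chosen with earlier results of these data known. Counts set beside those of all genes therefore only describe them. RNA-seq was performed in OVCAR3, an established human ovarian cancer cell line, which the genotype labels call WT with shNC and NUF2 knockdown with shNUF2. The shNC group received a control hairpin, and the shNUF2 group received 1 hairpin against NUF2, a subunit of the NDC80 complex that links kinetochores to microtubules. Both groups shared the transfection, with Lipofectamine, of a phU6-shRNA-CMV-puromycin plasmid carrying the hairpin, and the methods do not say whether the sequenced cells were the stable lines used elsewhere in the study. There were 3 libraries per group, and neither the labels nor the methods say whether the libraries of a group came from separate transfections or cultures, so that p-values measure only the spread between these libraries.

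Most cytokines of this family signal through receptor complexes that contain gp130, the chain encoded by IL6ST. IL-6 and IL-11 first bind their own receptor chains, encoded by IL6R and IL11RA, and then pair gp130 chains. LIF pairs gp130 with the LIF receptor, CLCF1 acts through the same pair together with the CNTF receptor, and oncostatin M pairs gp130 with the oncostatin M receptor or the LIF receptor. JAK kinases bound to these chains phosphorylate STAT3, which enters the nucleus, and SOCS3, a STAT3 target, binds gp130 and shuts the signal off. In ovarian cancer, IL-6 is known as a cytokine secreted by tumour cells and found in ascites.

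The RNA of 4 ligands and of 3 receptor chains was higher with shNUF2 than with shNC, and the RNA of LIFR and SOCS3 was lower. IL6 differed most among the members, at 13.4 times its shNC level, and IL6R, which encodes its own receptor chain, followed at 5.6 times. The other 7 members that passed the test differed by 1.45 times or less upward, or stood at 0.655 times or more of their shNC level. IL11RA did not pass. Calls were frequent in this comparison, since 67.6% of all genes tested passed, 33.9% upward and 33.8% downward. RNA of a whole culture was measured, so that fewer cells of a type and less RNA per cell cannot be told apart.

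The upstream sequences of the ligand genes are shown because all 4 ligands were higher with shNUF2. Promoter windows from RefSeq on GRCh38.p14 were matched by symbol for 8 of the 10 members, and LIF and CLCF1 had no entry. In the lines for IL6 and IL11, read 5′ to 3′ on the strand of the gene, capitals mark matches to 5 motifs searched on both strands. These were AP-1 (TGANTCA), NF-kB (GGGAN followed directly by TTTCC), C/EBP (TTGCNCAA), the CRE core (GACGTCA) and STAT (TTCNNNGAA).
IL6, chr7:22726950-22727146: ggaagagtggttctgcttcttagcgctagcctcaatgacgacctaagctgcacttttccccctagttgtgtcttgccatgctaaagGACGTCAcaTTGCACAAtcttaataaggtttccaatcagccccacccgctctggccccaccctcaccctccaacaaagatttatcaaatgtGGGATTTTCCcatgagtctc
IL11, chr19:55370464-55370713: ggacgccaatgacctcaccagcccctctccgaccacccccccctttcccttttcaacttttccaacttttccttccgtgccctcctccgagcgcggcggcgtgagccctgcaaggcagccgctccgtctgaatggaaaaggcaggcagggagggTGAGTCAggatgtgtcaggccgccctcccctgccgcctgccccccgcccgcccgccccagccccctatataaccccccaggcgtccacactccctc
The IL6 line covers 197 bases on the plus strand and stops before the first base that GENCODE release 29 places in an exon of the transcript IL6-201. It holds a CRE core from -164 to -158, a C/EBP match from -155 to -148 and an NF-kB match from -73 to -64, counted from the RefSeq start at 22727200, and these 3 matches do not overlap each other. That start lies 1316 bases inside the deposited span of the gene. The IL11 line covers 250 bases on the minus strand and holds an AP-1 match from -96 to -90. Among all 35116 RefSeq windows, 0.558% held the NF-kB motif, 2.61% the C/EBP motif, 3.45% the CRE core, 7.71% the AP-1 motif and 7.66% the STAT motif. AP-1 matches were also found just downstream of the start of IL6R, from 37 to 43, and of OSMR, from 3 to 9, and STAT matches in 2 of the windows of LIFR. The windows of IL6ST, IL11RA and SOCS3 held none of the 5 motifs. A match describes letters and does not show that a factor bound there.

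The 3′ UTRs of the ligands are the other sequence shown, because AU-rich elements with the pentamer ATTTA are where decay proteins such as those of the ZFP36 family bind short-lived cytokine mRNAs. The 30-base stretch with the most pentamers in the longest 3′ UTR of each ligand in GENCODE release 29 follows, with the pentamers in capitals.
IL6: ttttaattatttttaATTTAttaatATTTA
IL11: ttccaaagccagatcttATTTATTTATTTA
LIF: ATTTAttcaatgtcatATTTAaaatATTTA
CLCF1: taatATTTATTTAtttggagatgttATTTA
These are bases 124 to 153 of the IL6 3′ UTR, bases 27 to 56 of that of IL11, bases 3100 to 3129 of that of LIF and bases 876 to 905 of that of CLCF1. The IL6 3′ UTR held 6 pentamers in 429 bases, or 14 per kb, against a median of 1.48 per kb over 19132 genes, and 99.5% of genes had fewer per kb. IL11 had 5.56 per kb, CLCF1 4.13 and LIF 2.18. The longer element TTATTTATT occurred 6 times in IL11, 2 times each in LIF, CLCF1 and OSMR, and in none of the 3′ UTR of IL6. It was present in 5 of the 10 members and in 8.21% of all genes. IL11RA had no pentamer.

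The total counts ranged from 14115009 to 16995452 per library with shNC and from 13057534 to 15227460 with shNUF2. The counts of libraries of a group differed by more than sampling noise, with a chi-square per degree of freedom of 2.64 to 4.38, so that each library was counted as 1 sample. NUF2 was lower in all shNUF2 libraries, at 20.9 to 25.5 CPM against 63.5 to 68.6 CPM (log2 fold change -1.51, SE 0.08). After the filter on low counts, 12874 genes were tested, and all 10 members were among them, with at least 27 reads in every library. Markers of ovarian epithelium fixed as a list summed to 1521 to 1625 CPM with shNC and 1664 to 1774 CPM with shNUF2. Its members differed in direction, with KRT8 and KRT18 at 2.06 and 1.47 times their shNC level and MSLN, MUC16 and KRT7 at 0.595, 0.594 and 0.859 times. WT1 had 0 to 7 reads, CDH1 9 to 33 reads and EPCAM 44 to 91 reads, while PAX8 had 143 to 252 reads, KRT7 555.3 to 742.2 CPM and MSLN 232.4 to 410.0 CPM. WT1 and CDH1 were thus absent or low in both groups. Per gene length, as FPKM, EPCAM had means of 1.41 with shNC and 2.21 with shNUF2. PAX8 had means of 1.39 and 2.11 FPKM and MUC16 of 1.12 and 0.651 FPKM, so that EPCAM, PAX8 and MUC16 were all low. KRT7, KRT8, KRT18 and MSLN were far higher, with means of 35.3 to 169.1 FPKM with shNC and 50.5 to 141.7 FPKM with shNUF2. The name OVCAR3 is that of the labels, and the identity of the cells was not tested.

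IL6 encodes interleukin-6, the cytokine that gives the family its name. The gene (ENSG00000136244) lies on chromosome 7 of GRCh38 from 22725884 to 22732002 on the plus strand. With shNC it received 57, 70 and 58 reads per library, and with shNUF2 704, 749 and 724. As a normalized read count, which is CPM of the TMM-scaled library, these were 4.01, 4.38 and 3.37 against 52.2, 57.6 and 48.1. All shNUF2 libraries lay far above all shNC libraries, and the spread within each group was small beside the gap. The mean rose from 3.92 ± 0.51 to 52.7 ± 4.76 CPM (SD, n = 3). The log2 fold change was 3.75 (SE 0.12, adjusted p = 4.29e-20 by the quasi-likelihood test of edgeR, adjusted after Benjamini and Hochberg), rank 77 from the top of the 12874 genes tested. With any 1 library left out, the log2 fold change of IL6 stayed between 3.64 and 3.84. IL6 overlaps STEAP1B on the opposite strand, which had 0 to 6 reads per library.

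IL11 encodes interleukin-11, a relative of interleukin-6 that also pairs gp130 chains. The gene (ENSG00000095752) lies on chromosome 19 from 55364382 to 55370463 on the minus strand. Its normalized read counts were 57.1, 57.6 and 57.3 CPM with shNC and 77.9, 81.3 and 81.6 CPM with shNUF2. The shNC libraries were nearly identical, and the groups did not overlap. IL11 rose by a log2 fold change of 0.49 (SE 0.06, adjusted p = 1.67e-08 by the same edgeR test), or 1.4 times.

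LIF encodes leukemia inhibitory factor, which acts through the LIF receptor and gp130. The gene (ENSG00000128342) lies on chromosome 22 from 30240453 to 30246759 on the minus strand. The shNC libraries had 128.3, 113.3 and 117.7 CPM and the shNUF2 libraries 153.3, 149.7 and 146.3 CPM. The lowest shNUF2 library lay above the highest shNC library, by less than the gap seen for IL11 in proportion to the level. LIF rose by a log2 fold change of 0.32 (SE 0.05, adjusted p = 2.62e-06, edgeR), or 1.25 times. The antisense RNAs LIF-AS1 and AC004264.1 are annotated over it, and their reads cannot be told apart without the strand setting.

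CLCF1 encodes a cytokine that binds the CNTF receptor. The gene (ENSG00000175505) lies on chromosome 11 from 67364168 to 67374177 on the minus strand. Its counts were 13.4, 14.4 and 10.7 CPM with shNC and 15.3, 18.5 and 16.6 CPM with shNUF2. The groups did not overlap, but shNC replicate 2 and shNUF2 replicate 1 lay close together. The log2 fold change was 0.39 (SE 0.12, adjusted p = 0.00671, edgeR). The call was lost without shNC replicate 3 (log2 fold change 0.27, adjusted p = 0.0715). The whole deposited span of CLCF1 lies inside that of RAD9A on the opposite strand, whose log2 fold change was 0.19 (adjusted p = 0.0707, edgeR). The strand setting of the counting is not given in the sources used here, so that reads of this pair cannot be told apart. CLCF1 also shares 9417 bases with AP003419.1 on the same strand, which had 0 reads in every library.

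**Figure D1:**
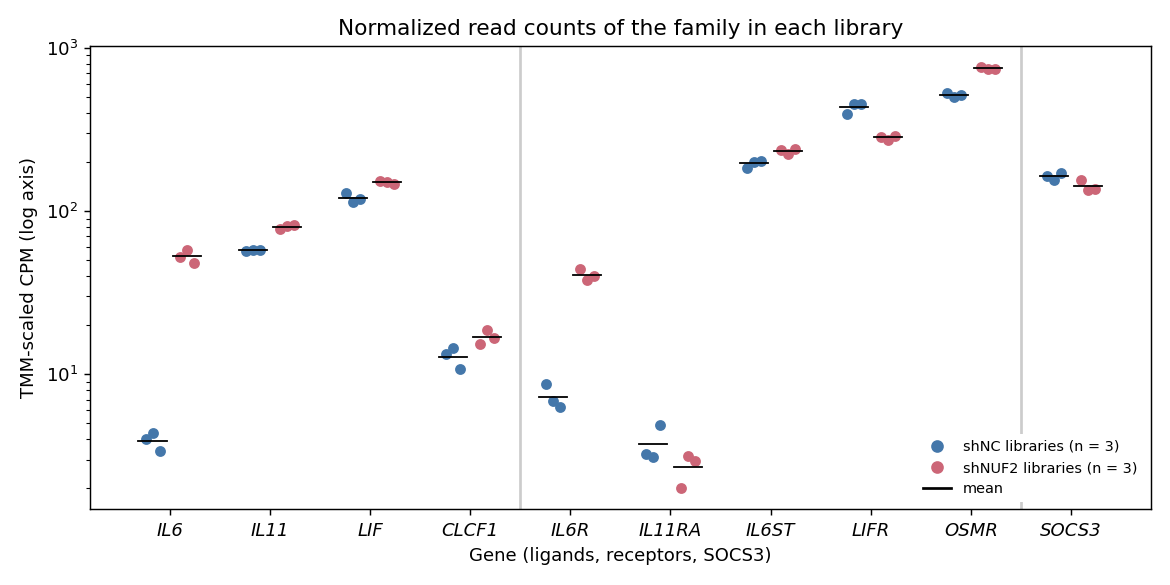
Normalized read counts (TMM-scaled CPM, log axis) of the 10 family genes in each of the 3 shNC and 3 shNUF2 libraries, with a line at each group mean. IL6 stood at 3.37 to 4.38 CPM with shNC and 48.1 to 57.6 CPM with shNUF2, while LIFR lay lower and OSMR higher in all shNUF2 libraries and the points of IL11RA and SOCS3 overlapped between the groups.

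IL6R encodes the chain that binds interleukin-6 before gp130 joins. The gene (ENSG00000160712) lies on chromosome 1 from 154405193 to 154469450 on the plus strand. With shNC it received 124, 109 and 109 reads, and with shNUF2 594, 492 and 599. On the normalized scale these were 8.72, 6.82 and 6.34 CPM against 44.1, 37.9 and 39.8 CPM. No shNC library came near the shNUF2 libraries. The mean rose from 7.29 ± 1.26 to 40.6 ± 3.18 CPM (SD, n = 3), a log2 fold change of 2.49 (SE 0.11, adjusted p = 1.66e-16, edgeR) and rank 222 from the top. Release 29 annotates a processed pseudogene of this gene, IL6RP1, on chromosome 9, and an antisense RNA, IL6R-AS1, whose reads may be shared with IL6R depending on how multiply mapped reads and strand were treated.

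IL11RA encodes the corresponding chain for interleukin-11. The gene (ENSG00000137070) lies on chromosome 9 from 34650702 to 34661902 on the plus strand. It had few reads, 46, 50 and 84 with shNC and 27, 41 and 44 with shNUF2. The normalized counts were 3.24, 3.13 and 4.88 CPM against 2.00, 3.16 and 2.93 CPM, and the groups overlapped. The log2 fold change of -0.48 (SE 0.26) did not pass the edgeR test, with an adjusted p of 0.102, and the exact two-sided permutation test gave p = 0.20. The value rested on single libraries, since it was -0.24 without shNC replicate 3 (adjusted p = 0.490, edgeR) and -0.31 without shNUF2 replicate 1 (adjusted p = 0.325, edgeR). On the same strand the gene shares 6412 bases of its deposited span with AL162231.3, which had 0 reads in every library, and 334 bases with GALT, whose log2 fold change was -0.59 (adjusted p = 0.0126, edgeR).

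IL6ST encodes gp130, the chain common to the receptors of the 4 ligands. The gene (ENSG00000134352) lies on chromosome 5 from 55935095 to 55995022 on the minus strand. Its levels were 184.0, 200.5 and 202.6 CPM with shNC and 236.1, 222.7 and 238.8 CPM with shNUF2. All shNUF2 libraries lay above all shNC libraries. IL6ST rose by a log2 fold change of 0.25 (SE 0.05, adjusted p = 4.31e-05, edgeR), or 1.19 times, the smallest increase among the members that rose. A processed pseudogene, IL6STP1, is annotated on chromosome 17.

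LIFR encodes the signalling chain for LIF, CLCF1 and, together with gp130, one of the receptors for oncostatin M. The gene (ENSG00000113594) lies on chromosome 5 from 38474668 to 38608354 on the minus strand. It had 393.5, 451.4 and 449.9 CPM with shNC and 285.5, 274.3 and 288.0 CPM with shNUF2. The groups were separate, with every shNUF2 library lower. LIFR fell by 0.61 on the log2 scale (SE 0.05, adjusted p = 1.83e-11, edgeR), to 0.655 times its shNC level, and it was the member with the largest decrease that passed the test. An antisense RNA, LIFR-AS1, is annotated over it, and its reads cannot be told apart without the strand setting.

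OSMR encodes the other oncostatin M receptor chain, which also pairs with the IL31RA product to form the receptor for interleukin-31. The gene (ENSG00000145623) lies on the same chromosome arm as LIFR, from 38845858 to 38945596 on the plus strand. It had 529.3, 501.7 and 517.6 CPM with shNC and 763.4, 742.2 and 741.0 CPM with shNUF2. The libraries of each group lay close together and the groups did not overlap. OSMR rose by a log2 fold change of 0.54 (SE 0.04, adjusted p = 5.67e-12, edgeR), or 1.45 times. The deposited span of OSMR shares 7677 bases with that of RICTOR on the opposite strand, and RICTOR rose by 0.58 (SE 0.05, adjusted p = 1.45e-11, edgeR). Reads of the shared stretch cannot be told apart without the strand setting.

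SOCS3 encodes the feedback inhibitor that binds gp130. The gene (ENSG00000184557) lies on chromosome 17 from 78356778 to 78360077 on the minus strand. Its levels were 164.5, 154.7 and 169.9 CPM with shNC and 155.5, 134.4 and 137.0 CPM with shNUF2. One shNUF2 library, replicate 1, lay just above the lowest shNC library, so that the groups overlapped. SOCS3 fell by 0.20 on the log2 scale (SE 0.05, adjusted p = 0.00209, edgeR), while the exact two-sided permutation test gave p = 0.20.

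An adjusted p under 0.05 was the usual outcome in this comparison, since 67.6% of the genes tested reached it. Among the members it was 9 of 10. By direction, 7 of 10 members rose against 33.9% of all genes tested, and 2 of 10 fell against 33.8%. The median log2 fold change was 0.36 for the members and -0.01 for all genes tested. By the rule of a log2 fold change over 1 with an unadjusted p under 0.05, IL6 and IL6R passed upward, or 2 of 10 members against 9.41% of all genes. No member passed downward, where the share of all genes was 4.16%. The groups of libraries did not overlap for 8 of 10 members and for 70.6% of all genes, so that separation of the groups was close to the background. For these 8 members the exact two-sided permutation test of the mean CPM gave p = 0.10, the smallest value that 3 against 3 libraries allow. When the change itself was tested against a log2 fold change of 1 (TREAT, in edgeR), IL6 and IL6R were called and no other member.

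**Figure D2:**
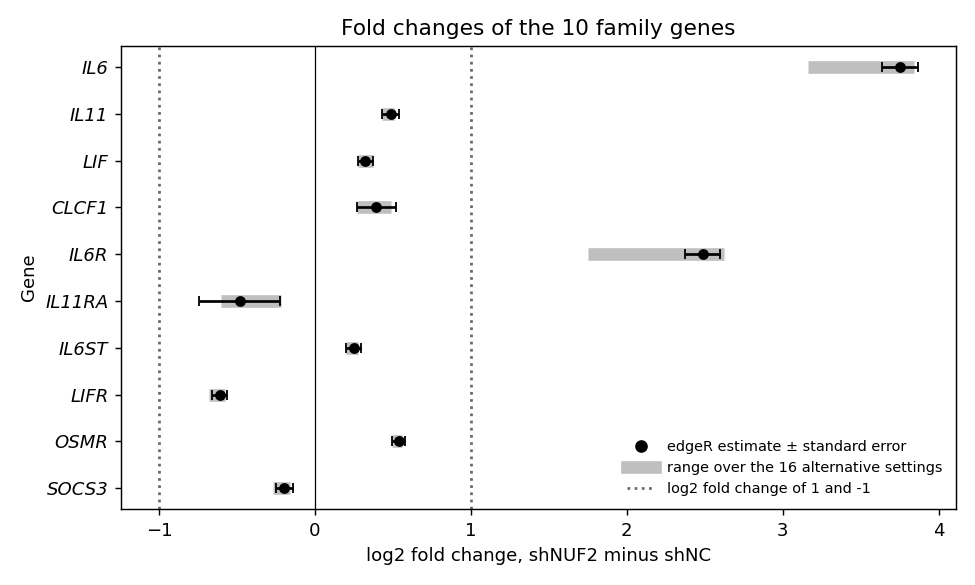
Log2 fold change of each family gene, shNUF2 minus shNC, as the edgeR estimate with its standard error (points and bars) and the range over 16 alternative settings (grey). IL6 at 3.75 and IL6R at 2.49 lay beyond the dotted line at 1, the other genes lay between -0.61 and 0.54, and no gene changed sign in any setting.

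Levels were compared between genes as FPKM, which divides by the gene length. OSMR was highest in both groups, at 72.8 ± 1.58 FPKM with shNC and 103.0 ± 0.968 FPKM with shNUF2 (SD, n = 3), and SOCS3 was next, at 60.4 ± 2.66 and 51.3 ± 3.67 FPKM. With shNC the order then ran LIFR at 35.9 ± 2.9, LIF at 31.3 ± 1.85, IL11 at 21.7 ± 0.211 and IL6ST at 19.6 ± 1.1 FPKM. LIFR and LIF overlapped between libraries, while each of the other neighbours named so far was apart. CLCF1 at 7.07 ± 1.06 FPKM, IL6 at 1.92 ± 0.254 FPKM and the overlapping pair of IL6R at 1.14 ± 0.193 and IL11RA at 0.887 ± 0.232 FPKM closed the order. IL6 was thus 8th of the 10 genes by level with shNC and 5th with shNUF2, where it reached 25.1 ± 2.41 FPKM. In the shNUF2 libraries LIF (38.2 ± 0.728 FPKM) and IL11 (29.6 ± 0.998 FPKM) preceded IL6. IL6, LIFR at 22.9 ± 0.471 FPKM and IL6ST at 22.7 ± 0.712 FPKM could not be ordered beyond the spread of their libraries. CLCF1 at 9.04 ± 0.964, IL6R at 6.20 ± 0.426 and IL11RA at 0.622 ± 0.146 FPKM came last and were apart from each other.

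The make-up of the family differed between the groups in several measures that were chosen after the values were seen, and for which the exact two-sided permutation test gave p = 0.10 each, the smallest possible. The summed FPKM of the 4 ligands was 62.0 ± 2.07 with shNC and 101.9 ± 3.97 with shNUF2 (SD, n = 3). IL6 made up 3.04%, 3.49% and 2.75% of that sum in the shNC libraries and 24.7%, 26.0% and 23.1% in the shNUF2 libraries. LIF contributed most in every library, with a mean of 50.5% that became 37.5%. IL11 went from 35.0% to 29.03% and CLCF1 from 11.4% to 8.86% of the sum, although the level of each rose.

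Among the receptors, the FPKM ratio of IL6R to IL6ST was 0.0743, 0.0533 and 0.0490 with shNC and 0.293, 0.267 and 0.261 with shNUF2. IL6R thus remained the lower of both genes in every library. The ratio of LIFR to OSMR was 0.439, 0.531 and 0.513 with shNC and 0.221, 0.218 and 0.229 with shNUF2, and the shNUF2 libraries lay below all shNC libraries. LIFR exceeded IL6ST in FPKM with shNC (ratio 1.83 ± 0.0486) and was level with it with shNUF2 (1.01 ± 0.0117). The ratio of OSMR to IL6ST went from 3.73 ± 0.286 to 4.55 ± 0.163.

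**Figure D3:**
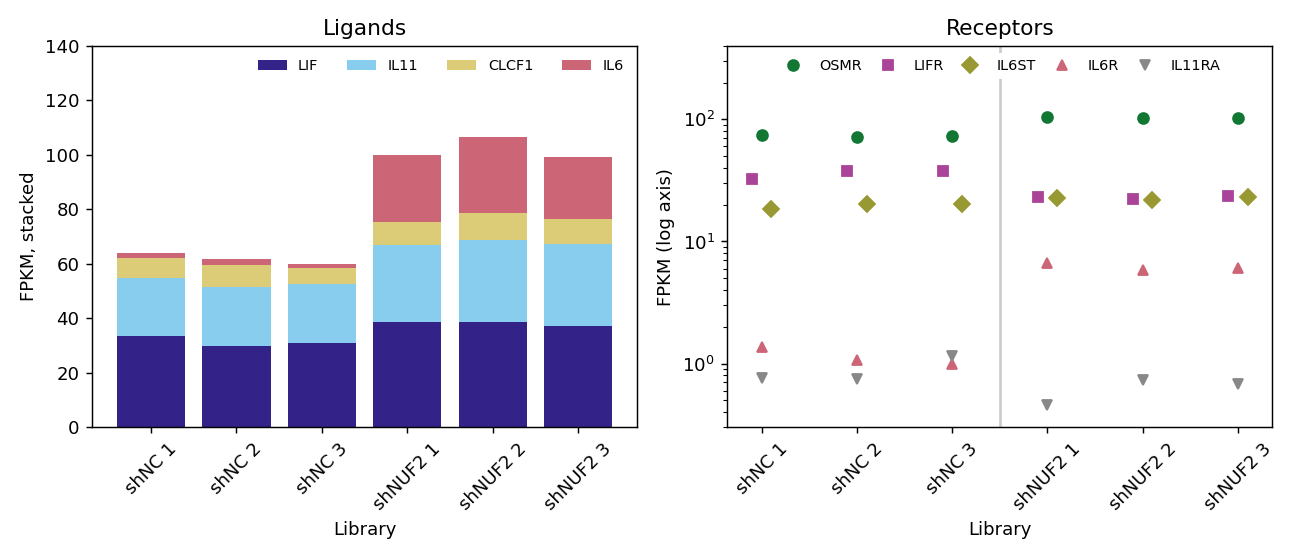
Left, FPKM of the 4 ligands stacked for each library, and right, FPKM of the 5 receptor chains for each library (log axis). The ligand sum was 60.0 to 64.1 FPKM in the shNC libraries and 99.4 to 106.5 FPKM in the shNUF2 libraries, and LIFR and IL6ST, apart with shNC, lay at the same height with shNUF2.

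The rest of the pathway was described by lists of genes with a known role in it, by counts beside the shares of all genes tested that rose (33.9%) or fell (33.8%). Of 6 further ligands, 3 were tested and 1 rose, with a median log2 fold change of 0.055 against -0.01 for all genes. CNTF, a cytokine that acts on the same receptors as CLCF1, rose by a log2 fold change of 0.63 (adjusted p = 0.0336, edgeR). Its call was lost without shNC replicate 2 (adjusted p = 0.114), shNC replicate 3 (0.0861), shNUF2 replicate 2 (0.0519) or shNUF2 replicate 3 (0.124), and with DESeq2 (0.0543). CTF1 at -0.08 and EBI3 at 0.05 on the log2 scale did not pass. OSM, the gene of oncostatin M and thus the ligand of OSMR, was not tested, with 0, 0 and 2 reads in the shNC group and 8, 9 and 5 with shNUF2. IL27 and IL31 had 0 reads in every library.

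Of 4 further receptor chains, 1 rose, 1 fell and 2 did not pass, with a median log2 fold change of 0.05. IL31RA, the partner of OSMR in the receptor for interleukin-31, had 3.31, 3.76 and 4.24 CPM with shNC and 13.6, 11.7 and 11.3 CPM with shNUF2. The groups were far apart, and IL31RA rose by a log2 fold change of 1.68 (SE 0.16, adjusted p = 9.64e-10, edgeR). IL27RA, which pairs with gp130 in the receptor for interleukin-27, fell by 0.36 on the log2 scale (adjusted p = 0.0158, edgeR) while its libraries overlapped. That call was lost without shNC replicate 3 (adjusted p = 0.0569), shNUF2 replicate 1 (0.0538) or shNUF2 replicate 2 (0.110). CNTFR, the binding chain for CNTF and CLCF1, had a log2 fold change of -0.35 and did not pass.

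Among 10 kinases, STATs and signal adaptors, 3 rose, 3 fell and 4 did not pass, which is close to the shares of all genes tested (33.9% higher and 33.8% lower). The median log2 fold change was -0.04, beside -0.01 for all genes. STAT3, the main transcription factor of the pathway, had 182.0, 187.4 and 172.2 CPM with shNC and 310.9, 303.5 and 307.0 CPM with shNUF2. No library of one group came near the other, and STAT3 rose by a log2 fold change of 0.77 (SE 0.04, adjusted p = 2.40e-14, edgeR). The FPKM ratio of SOCS3 to STAT3, also chosen after the values were seen, was 3.71 ± 0.33 with shNC and 1.90 ± 0.132 with shNUF2. Its exact two-sided permutation test gave p = 0.10, and the ratio only restates the changes of both genes. STAT5B, a STAT of growth hormone and other cytokine receptors, fell by 0.63, PTPN11, the phosphatase that links gp130 to RAS signalling, fell by 0.39, and JAK1, the principal kinase on gp130, fell by 0.14 on the log2 scale. GRB2 at 0.13 and the kinase TYK2 at 0.12 rose. The call of TYK2 (adjusted p = 0.0497, edgeR) was lost without shNC replicate 1 (adjusted p = 0.0879), shNC replicate 3 (0.285), shNUF2 replicate 1 (0.135) or shNUF2 replicate 3 (0.138), and that of GRB2 without shNUF2 replicate 2 (0.0591). Both calls were also lost with scaling by library totals (0.176 for TYK2 and 0.0640 for GRB2) and under limma (0.213 and 0.0733 with a pseudocount of 1). That of TYK2 was lost as well with upper quartile scaling (0.0642), DESeq2 (0.0786) and no filter (0.148).

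Of 14 inhibitors other than SOCS3, 7 rose, none fell and 7 did not pass, so that fewer than the 67.6% of all genes tested passed in either direction, while 33.9% of all genes rose. The median log2 fold change was 0.27, beside -0.01 for all genes. SOCS1, which blocks JAK kinases, was nearly absent with shNC, at 1, 0 and 3 reads, and had 28, 31 and 20 reads with shNUF2. Every shNUF2 library had more reads than any shNC library, and the ratio of the summed reads was 22.0, with a 95% exact binomial interval of 8.25 to 82.6 that covers counting error only. SOCS1 passed the filter on low counts only through the shNUF2 group, so that its edgeR call (adjusted p = 4.76e-07) is not support for the list. Without it, a tally made after the values were seen, 6 of 13 inhibitors rose and none fell, with a median log2 fold change of 0.12. SOCS2, an inhibitor best known from growth hormone signalling, had 21.2, 19.5 and 21.1 CPM against 45.2, 38.1 and 44.6 CPM and rose by a log2 fold change of 1.05 (SE 0.09). PIAS2, a SUMO ligase that restrains STATs, rose by 0.65. SOCS3 thus fell while SOCS1 and SOCS2 rose, and SOCS4, SOCS5, SOCS6 and SOCS7 lay between -0.07 and 0.12 on the log2 scale without passing. Of the proteases that shed the extracellular part of the IL-6 receptor, ADAM17 rose by 0.30 (adjusted p = 2.29e-04, edgeR), and ADAM10 at -0.02 did not pass.

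Genes known to respond to STAT3 were counted as 23 listed and 15 tested, of which 12 rose, 1 fell and 2 did not pass, beside 33.9% of all genes tested that rose and 33.8% that fell. Their median log2 fold change was 0.47, beside -0.01 for all genes tested. BCL6, a transcriptional repressor, rose by 1.24 (SE 0.11, adjusted p = 1.65e-10, edgeR), and MCL1, an inhibitor of apoptosis, rose by 0.99 (SE 0.06, adjusted p = 2.35e-14, edgeR). SAA1, an acute-phase protein, had 11, 24 and 16 reads against 23, 37 and 29 reads and a log2 fold change of 1.00 (SE 0.35, adjusted p = 0.0144, edgeR). Its call was lost without shNC replicate 1 (adjusted p = 0.0627), shNC replicate 3 (0.0518) or shNUF2 replicate 2 (0.105). FOSL2, an AP-1 subunit, fell by 0.14, and MYC at -0.08 and MUC1 at -0.20 did not pass. SOCS3, itself a STAT3 target, was treated as a member and is not on this list. It fell by 0.20 on the log2 scale (adjusted p = 0.00209, edgeR). Many of these genes respond to other signals too, and whether STAT3 had a part was not tested.

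All 8 regulators of IL6 mRNA decay that were listed were tested, and 7 rose and 1 fell, beside 33.9% and 33.8% of all genes tested. Their median log2 fold change was 0.49, and that of all genes -0.01. ARID5A, which binds the IL6 3′ UTR and stabilizes the mRNA, had 14.6, 13.5 and 12.2 CPM with shNC and 37.3, 39.1 and 38.8 CPM with shNUF2. The groups were far apart, and ARID5A rose by a log2 fold change of 1.52 (SE 0.09, adjusted p = 8.96e-14, edgeR). ZFP36 and ZFP36L1, which bind AU-rich elements such as those printed for the ligands and promote decay, rose by 0.73 and 0.82. ZC3H12A, the endonuclease regnase-1 that cleaves IL6 mRNA, had a log2 fold change of 0.34 (adjusted p = 9.23e-07, edgeR). The roquin genes moved apart, with RC3H1 at 0.55 (adjusted p = 2.79e-08, edgeR) and RC3H2, which fell by 0.52. Decay itself was not measured.

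**Figure D4:**
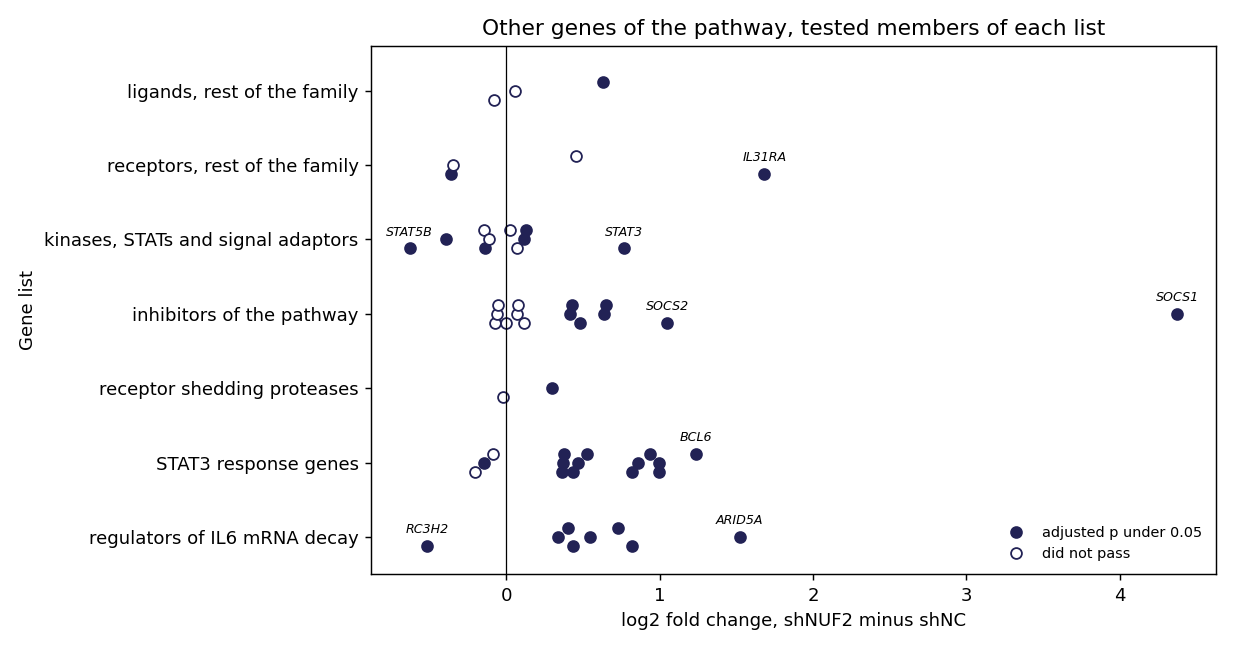
Log2 fold change, shNUF2 minus shNC, of each tested gene in 7 lists of pathway genes, with filled points for an adjusted p under 0.05 and open points for genes that did not pass. Most filled points of the STAT3 response genes (12 of 13) and of the IL6 mRNA decay regulators (7 of 8) lay right of 0, while the kinases, STATs and adaptors were split 3 to 3. SOCS3, a STAT3 target that fell, is a family member and is not in these lists.

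Cells that are known sources of IL-6 in tissue were checked by their markers. Of 8 fibroblast markers, 4 had 3 reads or fewer in every library, PDGFRA was at 0 in all, and the sum ranged from 84.0 to 90.6 CPM with shNC and 69.0 to 76.5 CPM with shNUF2. That sum was mostly COL1A1, at 79.0 to 85.3 against 58.9 to 64.3 CPM, and 2 other fibroblast markers were higher in all shNUF2 libraries. DCN, which encodes decorin, rose by a log2 fold change of 1.22 (adjusted p = 7.00e-06, edgeR), and COL3A1 had 1, 0 and 2 against 15, 15 and 5 reads. The 7 leukocyte markers summed to 0.492 to 1.13 CPM with shNC and 2.26 to 3.08 CPM with shNUF2. PTPRC, which encodes CD45, had 0, 1 and 0 reads against 6, 11 and 6 reads, and CD14 had 0, 3 and 1 against 10, 6 and 11. ITGAM had 3, 9 and 12 against 12, 13 and 10 reads, its groups overlapped and it did not pass (adjusted p = 0.185, edgeR). CD163 had 4, 5 and 2 against 3, 7 and 1 reads, and CD68 had 0, 0 and 2 against 0, 0 and 0. CD79A had 0, 0 and 0 against 0, 2 and 6 reads, and CD3E had 0 or 1 read. The 4 endothelial markers summed to 1.75 to 3.38 and 3.41 to 5.001 CPM, with CDH5 at 1, 1 and 4 against 15, 19 and 27 reads and KDR at 0 or 1 read. PECAM1 had the most reads of the 4 with shNC, at 46, 24 and 49 against 28, 43 and 32 reads, and did not pass (log2 fold change -0.02). Genes with at least 1 read numbered 14582 to 14691 per shNC library and 15435 to 15536 per shNUF2 library, although the total counts with shNUF2 were on average lower. The leukocyte and endothelial sums, DCN and COL3A1 were higher in all shNUF2 libraries, as was IL6, and their part in the result was not tested.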

How the data were processed

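RNA-seq libraries of OVCAR3 cells with shNC or shNUF2 were grouped by the treatment label, 3 per group. The submitters' processing notes name cutadapt, HISAT, HTSeq and GRCh38.p13. Their versions, the annotation release and the strand setting are not given in the sources used here. The authors deposited whole read counts per gene and FPKM values, which follow from the count, gene length and library total within a relative deviation of 2.71e-07. The total counts per library, 13057534 to 16995452, set the counting precision.

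edgeR 4.0.16 (R 4.3.3) was used on the counts, with filterByExpr, TMM scaling and the quasi-likelihood test over all 6 libraries with no covariate. Adjusted p-values are Benjamini-Hochberg values across the 12874 genes tested. The SE was obtained from the log2 fold change and the square root of the F statistic. The fold rule was a log2 fold change beyond 1 with an unadjusted p under 0.05, the study's threshold read on the log2 scale. Ratios of summed reads carry 95% exact binomial intervals, except those of FGA and FGB. These genes had 0 reads with shNC and were set against an assumed 3 reads.

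Named genes were the 10 members, NUF2 and, from each pathway list, up to 3 genes in each direction with the largest change among those with an adjusted p under 0.05, besides genes given with values. RICTOR, RAD9A, GALT, AL162231.3, AP003419.1, STEAP1B and the opposite-strand genes of release 29 were named for their overlap, and ZC3H12A and RC3H1 after their values were seen. The values of 1 listed gene are not reported here. The members and lists were chosen with earlier results of these data known. Alternatives were other scalings, filters, DESeq2 1.42.0, limma 3.58.1 on log2 FPKM with pseudocounts of 1 and 0.1, TREAT, a replicate block and each library left out. The fitting was tested on simulated data. Sequences came from RefSeq (GRCh38.p14) and GENCODE release 29. Other steps used Python 3.11.15 with numpy 2.4.6, pandas 2.3.3 and scipy 1.17.1.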

Additional observations from a re-analysis of the deposited data

How the results depend on the processing

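IL6, IL6R, IL31RA and ARID5A kept their direction and call under every alternative that tested them, and no member or gene named by rule changed sign under any. Under limma with a pseudocount of 1 the log2 fold changes were smaller, at 3.16 for IL6, 1.75 for IL6R, 1.28 for ARID5A and 0.85 for IL31RA, the last below the fold threshold of 1. The median of all genes moved by less than 0.1 on the log2 scale under every scaling, and was -0.05 with library totals and 0.07 with no filter. TREAT, which asks for a change beyond the threshold, called 680 genes higher and 211 lower (329 lower by the fold rule), 2 members higher and 0 lower, 1 inhibitor, 1 decay regulator upward and 0 downward, and 0 of the other ligands, the kinases in either direction, the sheddases, the STAT3 response genes in either direction and the further receptors downward. It called neither STAT3 nor any other named gene of the lists besides SOCS1, IL31RA and ARID5A. The log2 fold changes it did not call were 0.49 for IL11, 0.32 for LIF, 0.39 for CLCF1, 0.25 for IL6ST, -0.61 for LIFR, 0.54 for OSMR and -0.20 for SOCS3. By the fold rule, limma with a pseudocount of 1 called 430 genes higher and 206 lower, and a minimum of 1 CPM in every library left 756 higher. The kinase list kept 1 rising gene with library totals and under limma with either pseudocount. The further ligands had 0 rising genes with DESeq2 and 2 with no filter. The STAT3 response genes had 2 falling genes with library totals and with no filter. With 1 library left out, the log2 fold change of CLCF1 ranged from 0.27 to 0.49, further ligands called higher from 0 to 1, further receptors called higher from 1 to 2 and lower from 0 to 1, and STAT3 response genes called lower from 1 to 2. The cause of these shifts was not tested. SOCS1 and SAA1 were below the filter of 1 CPM. The log2 fold change of SOCS1, which passed the filter only through shNUF2, ranged from 3.83 to 5.52 over the left-out libraries and was 0.97 under limma with a pseudocount of 1.

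The replicate numbers did not pair the libraries. The deviations of same-numbered libraries from their group means correlated at 0.04, 0.02 and -0.04 over 12398 genes. A replicate block in the fit gave 4349 higher and 4353 lower genes, against 4363 and 4345 without it, and 7 members were higher and 2 lower as before. IL11RA had only 27 to 84 reads per library, and its log2 fold change was -0.22 under limma with a pseudocount of 1.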

Other observations

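Several liver acute-phase genes on the STAT3 response list were near the detection limit and were not tested. FGB, the fibrinogen beta chain, had 16, 5 and 19 reads with shNUF2 and 0 in every shNC library, and FGA had 12, 3 and 7 against 0 in every shNC library. Set against an assumed 3 reads over the shNC group, the ratio of summed reads was 14.8 for FGB and 8.16 for FGA. These ratios carry no interval for counting error and are not lower limits. FGG, the gamma chain, had 0, 0 and 1 against 20, 7 and 24 reads, LBP, the lipopolysaccharide-binding protein, had 2, 0 and 0 against 8, 8 and 5 reads, and SAA2 had 1, 0 and 1 against 8, 5 and 9 reads. In each of these 5 genes every shNUF2 library had more reads than any shNC library, with replicate 2 lowest in the shNUF2 group for the fibrinogen genes. More genes had a read with shNUF2 in general, 15435 to 15536 per library against 14582 to 14691 with shNC, and nothing particular to these 5 genes is read from it. SERPINA3 had 0 reads throughout, and HP and CRP had 4 and 2 reads in 1 shNUF2 library each. The ratio of summed reads for OSM was 12.2, with a 95% exact binomial interval of 3.01 to 107 that covers counting error only.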
